A study of Mus musculus with 30 samples.

Results

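Genes whose products neutrophils package into granules, or carry as abundant cytosolic proteins, were followed through the healing mouse fracture callus. They were chosen by name, for the stage of neutrophil maturation at which each is made, with earlier results of these data known. All 10 were found among the 43629 genes of the count table. Of them, 4 are primary granule genes (Mpo, Elane, Prtn3, Ctsg) and 6 are later genes (S100a8, S100a9, Ngp, Camp, Ltf, Lcn2). Male C57BL/6J mice on a lean control diet or on a high-fat diet that gave diet-induced obesity (DIO) had an open tibial osteotomy at 20 weeks of age, held by an intramedullary nail, and carried no engineered allele. The callus was freed of soft tissue and of neighbouring intact bone, and its poly(A) RNA was sequenced, 1 callus from each of 3 mice per diet and day. Lean calli came from d3, d5, d7 and d10 after fracture, and DIO calli from d3, d5, d7, d10, d14 and d21, which makes 12 lean and 18 DIO libraries, while lean d14 and d21 were not analysed here. The questions were how granule genes moved over healing, whether diet changed them, and whether primary and later genes moved together.

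Neutrophils fill their granules in order as they mature in the bone marrow. Promyelocytes make the primary (azurophil) granule proteins, which include myeloperoxidase (Mpo), the oxidant-forming enzyme, and the serine proteases neutrophil elastase (Elane), proteinase 3 (Prtn3) and cathepsin G (Ctsg). Myelocytes and metamyelocytes then make the secondary, or specific, granule proteins, among them neutrophilic granule protein (Ngp), the cathelicidin antimicrobial peptide (Camp), the iron binder lactoferrin (Ltf) and the siderophore binder lipocalin 2 (Lcn2), while S100a8 and S100a9, the calprotectin subunits, are made late and stay abundant in mature cells. Transcripts of the primary granule genes are low in circulating mature neutrophils, so the balance of the sets is used as a sign of maturation stage.

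The members lie at few places in the genome (GRCm38, GENCODE M21). Prtn3 (chr10:79874476-79883174, + strand) and Elane (chr10:79886247-79888215, + strand) are neighbours with 3072 bases between them, and Mpo (chr11:87793581-87804413, + strand) and Ctsg (chr14:56099881-56102574, − strand) lie apart. S100a8 (chr3:90668978-90670035, + strand) and S100a9 (chr3:90692632-90695721, − strand) are neighbours 22596 bases apart, and Camp (chr9:109847379-109849617, − strand), Ngp (chr9:110419747-110423012, + strand) and Ltf (chr9:111019271-111042767, + strand) share a stretch of chromosome 9, while Lcn2 is at chr2:32384633-32388252 (− strand). All 10 are protein coding, and the counts cover their exons. None shared a stretch of 100 or more bases at 95% or more identity with a transcript of a gene elsewhere. Exons of Mpo share 15.0% of their bases with Gm11505 and those of Prtn3 share 9.18% with Plppr3, both on the opposite strand, and the strand setting of the counting is not given in the sources used here. Gm11505 had at most 5 counts in any library, whereas Plppr3 had 22.1 to 56.6 CPM, so reads in the bases it shares with Prtn3 could not be assigned.

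The bases in front of the start sites are shown for all 4 primary genes and for Ngp and Ltf because the sets differed in the letters found there. The RefSeq promoter windows (GRCm38.p6, 250 bases before to 50 after the start) matched all 10 members, and 32851 genes in all. They were searched on both strands for TTNNGNAA, a degenerate core bound by C/EBP factors, for GAGGAA, a PU.1 core, and for TGTGGT, a RUNX core, where N is any base. The 250 bases before each start are printed on the gene's own strand with every match in capitals. These RefSeq starts can differ from the ends of the GENCODE genes given above. The Prtn3 stretch lies wholly within its GENCODE gene, and those of Mpo, Elane, Ngp and Ltf run past their GENCODE starts.

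Mpo (chr11:87793534-87793783, + strand): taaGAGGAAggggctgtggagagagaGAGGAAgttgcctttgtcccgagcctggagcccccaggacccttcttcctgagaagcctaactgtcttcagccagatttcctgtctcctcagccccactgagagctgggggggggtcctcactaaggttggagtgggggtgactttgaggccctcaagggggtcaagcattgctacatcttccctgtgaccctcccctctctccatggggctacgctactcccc
Elane (chr10:79886062-79886311, + strand): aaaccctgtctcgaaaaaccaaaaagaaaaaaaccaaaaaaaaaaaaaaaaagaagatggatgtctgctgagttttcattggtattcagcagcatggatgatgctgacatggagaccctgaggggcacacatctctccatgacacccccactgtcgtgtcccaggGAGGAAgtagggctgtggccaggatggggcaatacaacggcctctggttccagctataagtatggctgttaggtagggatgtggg
Prtn3 (chr10:79879417-79879666, + strand): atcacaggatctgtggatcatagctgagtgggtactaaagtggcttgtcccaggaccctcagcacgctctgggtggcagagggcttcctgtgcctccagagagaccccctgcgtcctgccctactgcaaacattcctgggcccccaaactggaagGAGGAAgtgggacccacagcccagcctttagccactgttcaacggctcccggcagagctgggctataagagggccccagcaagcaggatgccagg
Ctsg (chr14:56102575-56102824, − strand): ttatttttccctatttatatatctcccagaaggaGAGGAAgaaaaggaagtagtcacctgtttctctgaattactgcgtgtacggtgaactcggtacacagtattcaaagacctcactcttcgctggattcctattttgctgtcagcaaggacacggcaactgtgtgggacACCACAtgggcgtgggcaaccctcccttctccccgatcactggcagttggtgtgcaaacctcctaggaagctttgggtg
Ngp (chr9:110419558-110419807, + strand): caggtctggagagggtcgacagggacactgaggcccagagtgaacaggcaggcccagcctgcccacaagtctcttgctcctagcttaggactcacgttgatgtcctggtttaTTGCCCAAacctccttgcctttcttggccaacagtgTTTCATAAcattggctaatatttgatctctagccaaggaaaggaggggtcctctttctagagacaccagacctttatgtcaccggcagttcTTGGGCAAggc
Ltf (chr9:111019042-111019291, + strand): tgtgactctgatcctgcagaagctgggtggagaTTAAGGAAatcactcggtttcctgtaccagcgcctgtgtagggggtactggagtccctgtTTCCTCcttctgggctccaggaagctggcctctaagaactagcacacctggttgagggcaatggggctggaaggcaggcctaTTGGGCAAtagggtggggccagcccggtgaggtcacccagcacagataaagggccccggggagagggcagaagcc

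GAGGAA stood in all 4 primary windows, once in Elane, Prtn3 and Ctsg and at 2 places in Mpo. Counted from the RefSeq start site, its first base stood at -85 in Elane and -95 in Prtn3, the neighbouring pair. It stood at -216 in Ctsg and at -247 and -224 in Mpo. Of the 6 later windows, 3 held it (S100a8, Ltf and Lcn2), each on the other strand, against 28.3% of all windows. TTNNGNAA split the other way. It stood in 0 of 4 primary windows and in 5 of 6 later ones, Camp being without it, against 40.7% of all windows, with 3 matches in Ngp and 2 each in S100a9 and Ltf. TGTGGT was in 1 primary window (Ctsg) and 2 later ones (S100a9 and Ltf, the latter behind the start), against 16.8% of all windows. No 2 of these motifs overlapped in the sequences shown, and the matches are letters only, with no measure of binding.

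The libraries held 13247122 to 26365620 counts, with a median of 16854427, and replicate libraries differed by more than sampling noise. Levels are CPM, counts relative to the library's total after TMM scaling. Neutrophil markers were present in every library, with Ly6g, a neutrophil surface antigen, between 1.07 and 89.1 CPM and Csf3r, the G-CSF receptor, between 9.71 and 406 CPM. Every member was detected in every library, and the lowest count of any member was 22, for Ctsg in lean d10 mouse 1. That library stood apart, with the lowest value of all 30 for each of the 10 members. For comparisons of lean d10 with lean d3, lean d7 and DIO d10, the count of members called or their median is also given without it. Fold changes of single genes, counts of other gene lists and correlations include it. In bulk tissue, fewer neutrophils and less RNA per neutrophil cannot be told apart.

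Compared per kb of exon, so that levels of different genes can be set beside each other, S100a9 led with a median level of 4149 CPM per kb over the 30 libraries. S100a8 followed at 1589, Ngp at 867 and Camp at 609 CPM per kb, and this order of the leading genes held in 30 of 30 libraries. Lcn2 (145 CPM per kb) and Ltf (129) came next and were not separated, since Lcn2 was above Ltf in 20 of 30 libraries. Each primary gene was lower in median, with Elane at 86.7, Mpo at 58.6, Prtn3 at 48.8 and Ctsg at 25.9 CPM per kb. Elane lay above Mpo in 29 of 30 libraries and Prtn3 above Ctsg in 30 of 30, whereas Mpo lay above Prtn3 in 22 of 30. The level order thus put every later gene above every primary gene in median, although Ltf was above Elane in only 26 of 30 libraries.

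**Figure D1:**
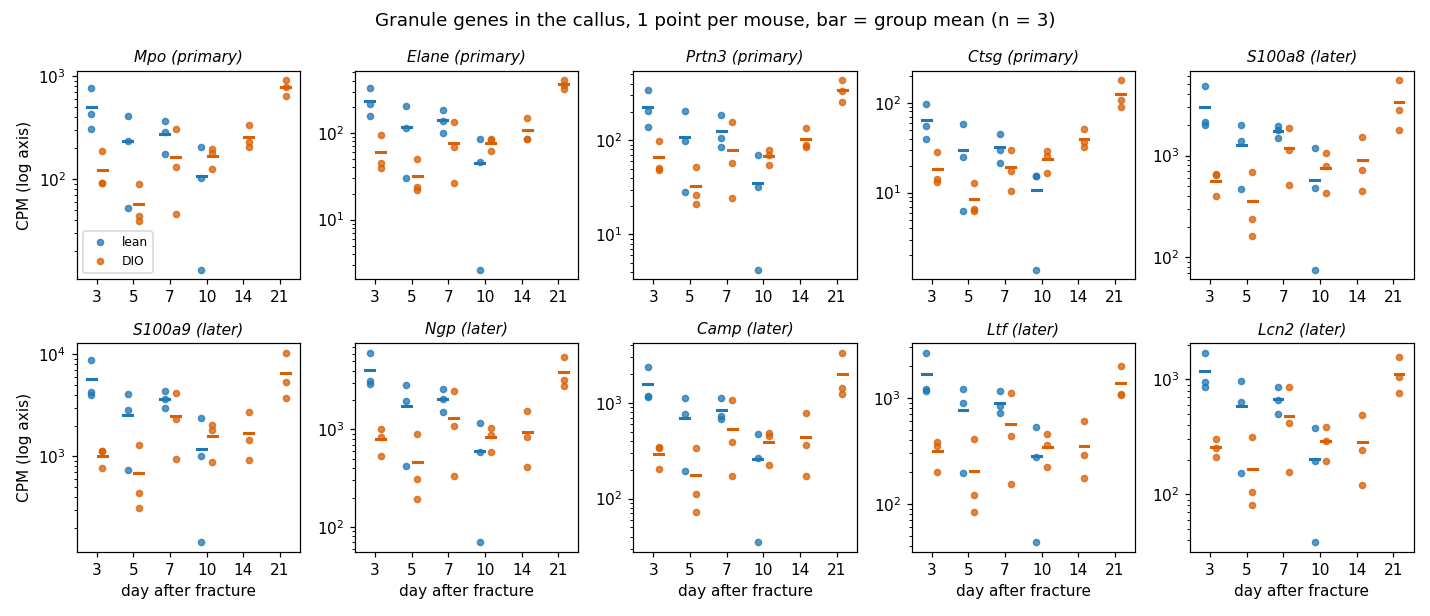
CPM of the 10 members by day after fracture on log axes, with 1 point per mouse, lean in blue and DIO in orange, and a bar at each group mean (n = 3). Every member is lower in the 3 DIO than in the 3 lean mice on d3, and every member is higher on d21 than on d14 in DIO mice, while 1 lean mouse lies far below the rest on d10.

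In lean calli the granule genes were highest on d3 and lowest on d10, and 7 of 10 fell over that span. Mpo had 425, 764 and 304 CPM in lean d3 mice 1, 2 and 3, then 52.9, 414 and 236 CPM on d5, 174, 367 and 287 CPM on d7 and 13.1, 207 and 102 CPM on d10. Ngp, the specific granule gene with the highest level per kb, had 3131, 6110 and 2928 CPM on d3, then 424, 2851 and 1935 CPM on d5, 1523, 2588 and 2034 CPM on d7 and 69.4, 1157 and 581 CPM on d10. All 3 d10 mice lay below all 3 d3 mice for both genes, and the spread on d5 and d10 came mainly from mouse 1 of each day. S100a9 went from 4327, 8896 and 3998 CPM on d3 to 144, 2368 and 1015 CPM on d10. The same lack of overlap held for all 10 members, against 22.2% of all genes tested. Mouse 2 was the highest of the 3 lean mice on d3 for every member.

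Between lean d3 and d10 the log2 fold changes ran from -2.70 for Ngp (SE 0.83, edgeR adjusted p = 0.030) to -2.17 for Mpo (SE 0.83, adjusted p = 0.068). Prtn3 fell by 2.64 (SE 0.83, adjusted p = 0.033), Ctsg by 2.56 (SE 0.80, adjusted p = 0.032) and Lcn2 by 2.49 (SE 0.73, adjusted p = 0.025) on the log2 scale. Camp, Ltf and S100a8 also passed, whereas Elane (-2.34, adjusted p = 0.063), S100a9 (-2.24, adjusted p = 0.053) and Mpo did not. Of all genes tested, 29.3% passed and 14.1% fell. The median of the 4 primary genes was -2.45 and that of the 6 later genes -2.51, beside 0.02 for all genes tested. The count of 7 rested on single mice. It was 4 without lean d3 mouse 1, 0 without lean d3 mouse 2 and 1 without lean d10 mouse 3, while without lean d10 mouse 1, the lowest library, 6 passed. DESeq2 called 8.

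Between adjacent lean days no member passed in edgeR. From d3 to d5 all 10 had lower means (the members' median was -1.09 on the log2 scale, -0.63 without lean d5 mouse 1 and -1.65 without lean d5 mouse 2), yet 0 passed in edgeR, 0 had an unadjusted p under 0.05 and 0 passed in DESeq2, where 0.449% of all genes passed in edgeR. Only S100a8, Ngp and Camp were without overlap between d3 and d5, against 11.5% of all genes being lower without overlap. From d5 to d7 the median was 0.24, -0.22 without lean d5 mouse 1 and 0.90 without lean d5 mouse 2, with 0 members and 0% of all genes passing in edgeR, 0 members under an unadjusted p of 0.05 and 0 in DESeq2. From d7 to d10 the median was -1.64, and 0 members passed in edgeR against 2.73% of all genes, and 0 in DESeq2. An unadjusted p under 0.05 was found for 4 of 10 members, beside 4275 of 16471 genes. On d10, 9 members lay below d7 without overlap, all but Mpo, against 14.8% of all genes, and without lean d10 mouse 1 the median was -1.10. In the test for any difference among the 4 lean days, 0 members passed in edgeR against 19% of all genes, and DESeq2 called 1. There 4 of 10 members had an unadjusted p under 0.05, beside 5882 of 16471 genes.

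In DIO calli the means of Mpo and Ngp were lowest on d5 and highest on d21, a day from which no lean libraries were analysed here. Mpo had 91.9, 188 and 91.2 CPM in DIO d3 mice 1, 2 and 3 and 90.1, 44.1 and 39.0 CPM on d5. It then had 132, 45.6 and 309 CPM on d7, 124, 196 and 179 CPM on d10, 206, 333 and 231 CPM on d14 and 914, 786 and 640 CPM on d21. The 3 d21 mice lay above all other DIO mice, and the d7 group was the widest. Ngp had 535, 1019 and 834 CPM on d3, 898, 307 and 194 CPM on d5, 1082, 335 and 2505 CPM on d7, 581, 867 and 1037 CPM on d10, 845, 1540 and 412 CPM on d14 and 5538, 2789 and 3222 CPM on d21. For Ngp, too, every d21 mouse was above every earlier DIO mouse, and mouse 3 of d7 came close to the lowest of them.

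All 10 members rose from d14 to d21 in DIO calli. Camp rose most, from 365, 774 and 174 CPM to 3336, 1227 and 1442 CPM, a log2 fold change of 2.19 (SE 0.68, edgeR adjusted p = 0.031). S100a8 rose from 725, 1537 and 445 CPM to 5503, 1786 and 2823 CPM, or by 1.90 (SE 0.59, adjusted p = 0.033). For both genes the d21 mice were all above the d14 mice, and d21 mouse 1 was the highest. Elane, with 85.5, 150 and 85.1 CPM on d14 and 404, 359 and 321 CPM on d21, had the tightest d21 group and a log2 fold change of 1.76 (SE 0.46, adjusted p = 0.014). Ctsg had the smallest adjusted p (1.64, SE 0.39, adjusted p = 0.0090) and Ltf the largest (1.95, SE 0.65, adjusted p = 0.043). The median was 1.68 for primary and 1.97 for later genes, beside -0.03 for all genes, of which 19.6% passed and 10.6% rose. No member overlapped between the days, against 18.6% of all genes that were higher without overlap. Without d21 mouse 1 the count of 10 became 0, without d14 mouse 1 or without d14 mouse 3 it became 1, and DESeq2 called 10. With all 30 libraries in 1 fit 2 passed.

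Over the whole DIO span, from d3 to d21, all 10 rose and stood without overlap, against 45.3% of all genes passing, 23.5% passing as higher and 28.8% higher without overlap. Ctsg rose by 2.74 (SE 0.41, edgeR adjusted p = 4.7e-05), Mpo by 2.66 (SE 0.51, adjusted p = 0.00045) and Ltf by 2.14 (SE 0.65, adjusted p = 0.013) on the log2 scale. The median was 2.63 for primary and 2.42 for later genes. Leaving out any 1 mouse of these days left 9 or 10 members called. In the test for any difference among the 6 DIO days all 10 passed, against 59.1% of all genes.

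The steps between d3 and d14 in DIO calli gave no member past the threshold. From d3 to d5, 0 members passed in edgeR against 1.68% of all genes, and 0 passed in DESeq2. An unadjusted p under 0.05 was found for 2 members (Mpo and Ctsg), beside 2333 of 16995 genes. Those 2 were also the ones lower without overlap, against 12.9% of all genes. From d5 to d7 the members' median log2 fold change was 1.49, and it was 0.65 without d7 mouse 3 and 2.37 without d5 mouse 1. All 10 had an unadjusted p under 0.05, beside 2411 of 16995 genes. After adjustment 0 members passed in edgeR or in DESeq2, where 0.0177% of all genes passed in edgeR. DIO d7 mouse 2 lay within the d5 range for each member. Without d7 mouse 2, 2 members passed. From d7 to d10 the median was -0.56, and 0.35 without DIO d7 mouse 3, with 0 passing in edgeR (13% of all genes), 0 under an unadjusted p of 0.05 and 0 in DESeq2. From d10 to d14 the median was 0.22, and -0.41 without DIO d14 mouse 2, with 0 passing in edgeR (0.759% of all genes), 0 under an unadjusted p of 0.05 and 0 in DESeq2. In that step the 4 primary genes were each higher on d14 in all 3 mice than in any d10 mouse, against 14% of all genes, while all 6 later genes overlapped.

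**Figure D2:**
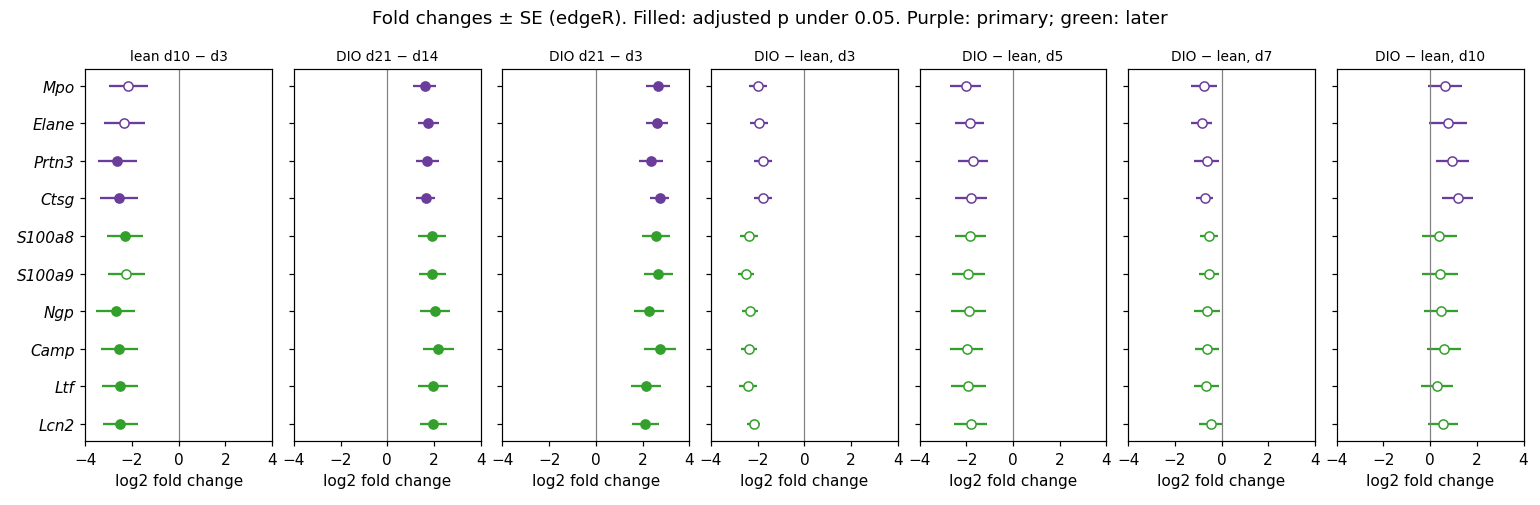
Log2 fold changes of the 10 members with their SE (edgeR) in 7 comparisons, filled where the adjusted p was under 0.05, with primary genes in purple and later genes in green. All 10 points are filled in both d21 comparisons, 7 in the lean d3 to d10 comparison and 0 in the 4 diet comparisons, although all points for d3 lie between -2.49 and -1.76.

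On d3 every granule gene was lower in DIO than in lean calli. S100a9 had 4327, 8896 and 3998 CPM in lean and 771, 1133 and 1140 CPM in DIO mice, a log2 fold change of -2.49 (SE 0.34, edgeR adjusted p = 0.079). Lcn2 had 957, 1705 and 864 CPM in lean and 213, 306 and 253 CPM in DIO mice, a change of -2.18 (SE 0.28, adjusted p = 0.079). In both genes each DIO mouse was far below each lean mouse. Elane had 213, 327 and 156 CPM against 45.5, 93.9 and 39.1 CPM, a change of -1.95 (SE 0.38, adjusted p = 0.10), and Ctsg had 55.4, 97.2 and 39.2 CPM against 13.3, 28.2 and 14.2 CPM, a change of -1.77 (SE 0.39, adjusted p = 0.12). The diets did not overlap for any member, and 12% of all genes were lower in DIO without overlap.

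The d3 difference did not pass the adjusted threshold in edgeR, where 0 members and 0% of all 15772 genes passed, although all 10 members had an unadjusted p under 0.05, along with 2374 of all genes. DESeq2 called all 10 members, among 743 genes. The median was -1.86 for primary and -2.39 for later genes, beside 0.01 for all genes. Without lean d3 mouse 3, all 10 members passed in edgeR, and without lean d3 mouse 2, 2 passed and the median over members was -1.83.

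On the later days no member passed either. On d5 all 10 members had lower means in DIO calli (median -1.88) with unadjusted p between 0.016 and 0.035, and 0 passed in edgeR (1.08% of all genes) or DESeq2. All 10 overlapped there, lean d5 mouse 1 being the only lean mouse below the highest DIO mouse, while 12.3% of all genes were lower in DIO without overlap, and without that mouse 2 members passed. On d7 the median was -0.64, -1.52 without DIO d7 mouse 3 and -0.20 without DIO d7 mouse 2, with 0 passing in edgeR (2.32% of all genes), 0 under an unadjusted p of 0.05 and 0 in DESeq2. Without DIO d7 mouse 3, 1 member passed. On d10 the median was 0.56, 0.04 without lean d10 mouse 1 and 1.46 without lean d10 mouse 2, with 0 passing in edgeR (0% of all genes), 0 under an unadjusted p of 0.05 and 0 in DESeq2. Ctsg alone was higher in DIO d10 mice without overlap (16.6, 28.9 and 25.4 CPM beside 1.38, 15.2 and 15.1 CPM in lean), against 6.86% of all genes. The test of whether the diet difference changed among d3, d5, d7 and d10 called 0 members in edgeR (adjusted p 0.18 to 0.33), against 1.65% of all genes. In it 5 members had an unadjusted p under 0.05, beside 3137 of 17057 genes, and DESeq2 called 0 members. A change of the diet difference with day was thus not shown.

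Primary and later genes were then compared within each library, by the mean log2 CPM of the 4 primary genes minus that of the 6 later genes. This difference compares changes and not absolute amounts. In lean calli it stayed level. The d3 value was -3.59 ± 0.24 (SD, n = 3) and the d5 value -3.60 ± 0.25, followed by -3.65 ± 0.20 for d7 and -3.64 ± 0.29 for d10. Primary transcripts made up 5.66% ± 0.864 of the members' summed CPM on d3 and 5.78% ± 0.766 on d10. Between lean d3 and d10 the balance differed by -0.05, less than the spread of the mice.

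In DIO calli the balance varied more. The difference was -3.15 ± 0.48 (SD, n = 3) on d3 and -3.26 ± 0.49 on d5, and then -3.75 ± 0.08 on d7. On d10 it was -3.06 ± 0.31, on d14 -2.45 ± 0.66 and on d21 -2.86 ± 0.41. The 9 mice of d10 to d21 all lay above the 3 mice of d7, whose values were -3.80, -3.66 and -3.80. The primary share was 4.72% ± 0.365 on d7, 7.73% ± 1.54 on d10, 11.3% ± 4.51 on d14 and 8.87% ± 2.96 on d21. DIO d14 mouse 3 was the extreme, with a share of 16.4%, and d14 without it remained above d7. Between the diets the groups overlapped on each shared day, with DIO above lean by 0.44 on d3, 0.35 on d5 and 0.58 on d10 and below it by 0.10 on d7. These balances are given as descriptions, with no test.

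**Figure D3:**
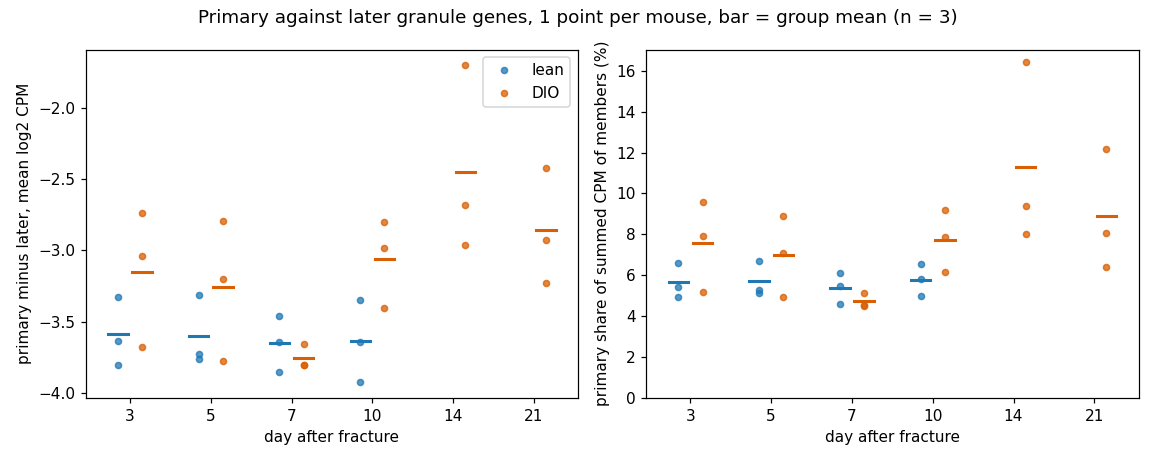
Mean log2 CPM of the 4 primary genes minus that of the 6 later genes (left) and the primary share of the members' summed CPM in percent (right), by day after fracture, 1 point per mouse with a bar at the group mean (n = 3). Lean mice stay between -3.92 and -3.31 on all 4 days, while DIO mice of d10, d14 and d21 all lie above those of d7.

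Ratios of counts within a library do not depend on its scaling, and those given here were chosen after their values were seen, so no test is given. Mpo counts were 0.104 to 0.145 times the Ngp counts in the 9 lean libraries of d3 to d7, and 0.189, 0.179 and 0.176 times in the 3 lean libraries of d10. In DIO calli the ratio was 0.122, 0.136 and 0.123 on d7, 0.214, 0.226 and 0.172 on d10, 0.243, 0.216 and 0.560 on d14 and 0.165, 0.282 and 0.199 on d21. Mpo was thus the one primary gene that stood higher against Ngp on lean d10 in all 3 mice, whereas Prtn3 stood at 0.0605, 0.0600 and 0.0553 times Ngp there, within its range on the earlier days. Among the primary genes themselves the ratios moved less. Prtn3 counts were 0.314 to 0.600 times the Mpo counts over all 30 libraries, lowest on lean d10 (0.321, 0.336 and 0.314) and highest on DIO d5 (0.574, 0.600 and 0.539). Elane stood at 0.201 times Mpo in lean d10 mouse 1, from 42 Elane counts, and between 0.369 and 0.575 times in the other 29 libraries.

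The later genes kept close to one another. S100a8 counts were 0.432 to 0.625 times those of S100a9 over all 30 libraries, the narrowest of the ratios computed. Lcn2 counts were 0.273 to 0.550 times those of Ngp, and Ltf counts 0.337 to 0.624 times, each highest in lean d10 mouse 1. S100a9 was 1.38, 1.46 and 1.36 times Ngp on lean d3 and 2.08, 2.05 and 1.75 times on lean d10, without overlap, and in DIO calli it was 1.44, 1.11 and 1.37 times on d3 and 2.13, 2.80 and 1.67 times on d7. S100a9, the calprotectin subunit, thus stood higher against Ngp in all 3 lean mice of d10 than in those of d3. On DIO d21 the ratio was 1.87, 1.34 and 1.68, which overlapped DIO d3. Camp and Ltf, both specific granule genes, were nearly equal in counts in lean calli, where Camp was 0.805 to 0.995 times Ltf. In DIO calli Camp was 1.00, 0.899 and 0.969 times Ltf on d3, 1.27, 1.29 and 1.00 times on d14 and 1.68, 1.16 and 1.33 times on d21. All 3 d21 values lay above all DIO values of d3, d5 and d7.

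Retnlg, a gene of late neutrophil maturation, and Mmp8, a specific granule gene like Ngp, were set against Ngp in the same way. Retnlg, a resistin-like protein of mature neutrophils, was 0.0692, 0.0954 and 0.0843 times Ngp on lean d3, then 0.132, 0.132 and 0.140 times on d5, 0.248, 0.188 and 0.177 times on d7 and 0.262, 0.202 and 0.190 times on d10. In DIO calli it was 0.0722, 0.0511 and 0.0616 times on d3 and 0.227, 0.121 and 0.172 times on d5. It was 0.211, 0.195 and 0.208 times on d14, and 0.130, 0.112 and 0.0956 times on d21. On both diets the d3 mice were the lowest, and the d21 mice lay between d3 and d14 without overlap with either, but overlapped DIO d5. Mmp8, neutrophil collagenase, was 0.0234 to 0.0355 times Ngp on lean d3 and 0.0413 to 0.0719 times on the later lean days. In DIO calli it was 0.0204 to 0.0302 times on d3, 0.0602 to 0.0684 times on d14 and 0.0286 to 0.0487 times on d21. Ly6g overlapped where these ratios did not. It was 0.0189, 0.0205 and 0.0180 times Ngp on DIO d14 and 0.0155, 0.0125 and 0.0185 times on d21. On lean d3 it was 0.00991, 0.0146 and 0.0156 times, and on lean d10 0.0154, 0.0209 and 0.0209 times.

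**Figure D4:**
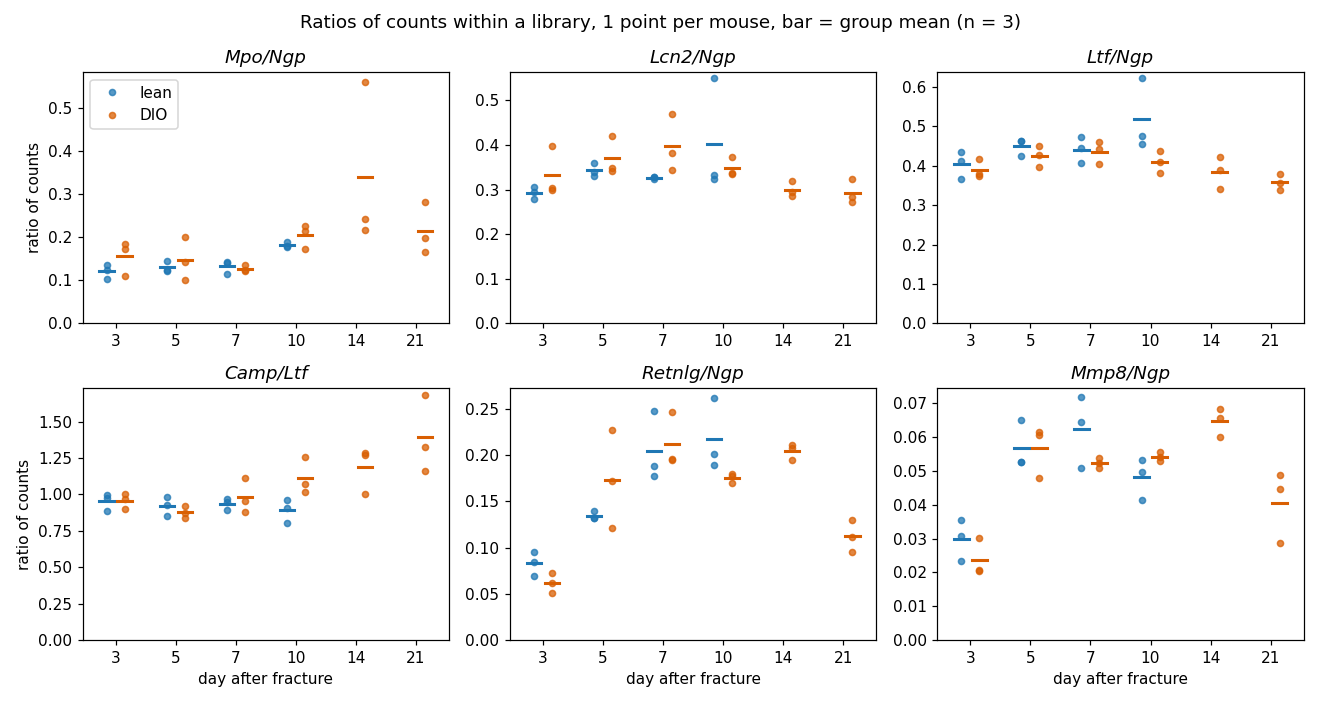
Ratios of counts within each library for 6 pairs of genes by day after fracture, 1 point per mouse with a bar at the group mean (n = 3), lean in blue and DIO in orange. Ltf over Ngp stays between 0.337 and 0.624, while Retnlg over Ngp is lowest on d3 in both diets and lower on d21 than on d14.

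Other genes of neutrophil granules were read beside the members. Of 16471 genes tested over the lean span, 14.1% fell and 2508 rose. Of 16995 genes tested from DIO d14 to d21, 10.6% rose and 1535 fell. Of 15 measured other specific granule genes, 13 fell between lean d3 and d10 (median -2.47), among them Abca13 (-4.03, SE 0.79, edgeR adjusted p = 0.0036) and Cybb, the phagocyte oxidase subunit (-2.18, SE 0.54, adjusted p = 0.012). Between DIO d14 and d21, 8 of the 15 rose (median 1.69), with Chil3, a chitinase-like protein, at 2.30 (SE 0.52, adjusted p = 0.0069) and Orm1 at 1.81 (SE 0.40, adjusted p = 0.0062). The 12 other genes of the primary granule list were mixed. In lean calli from d3 to d10, 6 of them fell and 4 rose, with Ctsc, the activator of the granule proteases, at -1.52 (SE 0.16, adjusted p = 0.00015) and Hexa, a lysosomal hexosaminidase, at 1.32 (SE 0.17, adjusted p = 0.00043). From DIO d14 to d21, 4 of the 12 rose, among them Ms4a3, a marker of granulocyte and monocyte progenitors (1.87, SE 0.49, adjusted p = 0.015), and Serpinb1a, an elastase inhibitor (1.65, SE 0.30, adjusted p = 0.0015).

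Genes of mature neutrophils were read over the same periods, in which 14.1% of all genes fell (lean d3 to d10) and 10.6% rose (DIO d14 to d21). Of 17 genes in a mature neutrophil list, 11 fell between lean d3 and d10 (median -2.11), with Clec4e at -2.44 (SE 0.35, edgeR adjusted p = 0.00077). Between DIO d14 and d21, 5 of the 17 rose (median 1.12), with Ccrl2, an atypical chemokine receptor, at 1.47 (SE 0.45, adjusted p = 0.029). Cxcr2, the chemokine receptor of mature neutrophils, was 0.0391, 0.0327 and 0.0797 times Ngp in counts on DIO d14 and 0.00641, 0.00996 and 0.0134 times on d21, which had the lowest mean of the 10 groups. Of 6 measured neutrophil chemokines and activators, 6 fell between lean d3 and d10 (median -3.50), led by Cxcl5 (-5.74, SE 0.48, adjusted p = 3.2e-05) and Cxcl2 (-4.20, SE 0.49, adjusted p = 0.00026). Between DIO d14 and d21 Cxcl5 was at -1.08 (SE 0.96, adjusted p = 0.45), and the median was -0.64. From DIO d3 to d21, 2 of the 6 fell, against 21.8% of all genes, Cxcl5 (-5.85, SE 0.93, adjusted p = 8.5e-05) and Cxcl1 (-4.78, SE 0.89, adjusted p = 0.00037). Of 12 measured granulocyte regulators, 6 fell and 1 rose over the lean span (median -0.97), and Gfi1, a repressor needed for neutrophil maturation, fell by 2.06 (SE 0.53, adjusted p = 0.013). From DIO d14 to d21, 2 of the 12 rose and 1 fell (median 0.40), with Gfi1 at 1.30 (SE 0.42, adjusted p = 0.040) and the clock gene Per3 at -0.76 (SE 0.25, adjusted p = 0.043). From DIO d3 to d21, 3 of the 12 rose and 3 fell (median 0.08), near the shares of all genes, of which 23.5% rose and 21.8% fell. Myb, a factor of proliferating progenitors, was among those that rose, by 3.97 (SE 0.56, adjusted p = 2.8e-05).

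Erythroid, B progenitor and cell cycle genes rose beside the granule genes on DIO d21. Of all genes tested, 10.6% rose from d14 to d21. The 12 erythroid markers summed to 4271 to 13568 CPM on d14 and to 28486 to 39981 CPM on d21, and 7 of 12 rose, with Hbb-bt, a beta globin, at 2.24 (SE 0.62, edgeR adjusted p = 0.020). The 11 B progenitor markers summed to 269 to 477 CPM on d14 and 652 to 920 CPM on d21, and 3 rose, with Igll1, a surrogate light chain, at 1.75 (SE 0.47, adjusted p = 0.017). Their defining genes Vpreb1 and Rag1 were at 34.2 to 46.7 and 11.9 to 43.0 CPM on d21. All 10 cell cycle genes rose, from a sum of 655 to 1131 CPM to one of 2342 to 3533 CPM, with Mki67, a proliferation marker, at 2.12 (SE 0.27, adjusted p = 0.00019). The 13 monocyte and macrophage markers summed to 3371 to 4145 CPM on d14 and 3677 to 5144 CPM on d21, and 1 rose and 1 fell. The 9 eosinophil markers summed to 154 to 468 CPM on d14 and 454 to 844 CPM on d21, so that the sums overlapped, with Epx, the eosinophil peroxidase, at 21.8 to 66.7 and 76.9 to 140 CPM. Of these 9 genes, 0 passed in edgeR, 2 had an unadjusted p under 0.05, beside 5861 of 16995 genes, and 0 passed in DESeq2. The part of any of these cells in the rise of the granule genes was not tested.

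**Figure D5:**
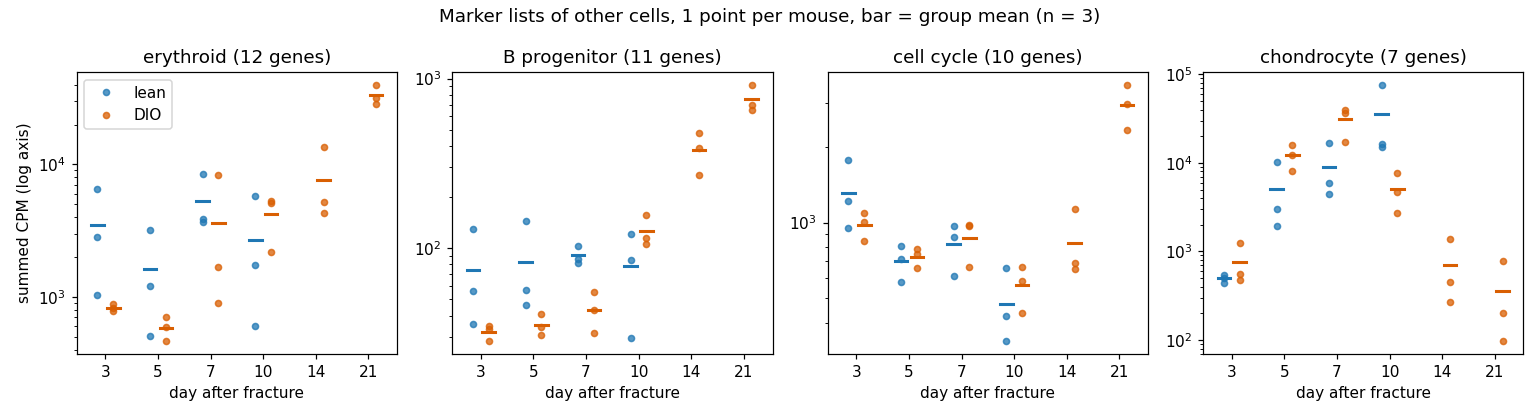
Summed CPM of 4 lists of markers of other cells or of cell division by day after fracture, on log axes, 1 point per mouse with a bar at the group mean (n = 3), lean in blue and DIO in orange. The erythroid, B progenitor and cell cycle sums are highest on DIO d21, and the chondrocyte sum is highest in 1 lean mouse of d10.

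Beside the lean fall from d3 to d10, other leukocyte and cell cycle lists fell as well, and cartilage genes rose. Of 16471 genes tested, 14.1% fell and 2508 rose over this span. Of 7 general leukocyte genes 6 fell (median -1.67), from a sum of 1437 to 2197 CPM to one of 512 to 860 CPM, and 5 of 7 megakaryocyte markers fell (median -2.48), from 469 to 966 CPM to 54.2 to 201 CPM. Of 13 monocyte and macrophage markers 8 fell and 2 rose, with sums of 5437 to 6468 CPM on d3 and 2293 to 3419 CPM on d10. All 10 cell cycle genes fell (median -1.51), from 950 to 1773 CPM to 338 to 657 CPM. The sums of these 4 lists did not overlap between d3 and d10. The 7 chondrocyte markers summed to 442 to 546 CPM on lean d3 and 15069 to 76405 CPM on lean d10, and all 7 rose, with Col2a1, the main cartilage collagen, at 7.36 (SE 1.06, edgeR adjusted p = 0.00081). Lean d10 mouse 1, which had the lowest level of every member, had the highest chondrocyte sum (76405 CPM, beside 16444 and 15069 CPM in mice 2 and 3), the lowest skeletal muscle sum (958 CPM, beside 13626 and 9368 CPM) and the lowest sum of 7 general leukocyte genes (512 CPM, beside 860 and 720 CPM). On d3, where granule gene levels were lower in DIO calli, so were those of all 7 general leukocyte genes (median -0.83), whose sums were 1437 to 2197 CPM in lean and 705 to 1256 CPM in DIO calli, without overlap. All 7 megakaryocyte markers were lower too (median -1.26), with sums of 469 to 966 and 239 to 475 CPM, which overlapped. Of all 15772 genes tested on d3, 0 passed in edgeR and 2374 had an unadjusted p under 0.05. Of the general leukocyte genes 0 passed in edgeR, 6 had an unadjusted p under 0.05 and 4 passed in DESeq2. Of the megakaryocyte markers 0 passed in edgeR, 3 had an unadjusted p under 0.05 and 0 passed in DESeq2. Monocyte and macrophage markers differed less on d3, with 10 of 13 lower in DIO (median -0.18). Of these 13, 0 passed in edgeR, 2 had an unadjusted p under 0.05, near the share of all genes, and 1 passed in DESeq2. Of 6 measured neutrophil chemokines and activators, 4 were lower (median -0.14). All 16 measured genes of the mature neutrophil list were lower (median -0.97), 13 with an unadjusted p under 0.05, 0 past edgeR and 8 in DESeq2. On that day chondrocyte sums were low on both diets (442 to 546 CPM in lean and 477 to 1242 CPM in DIO). Erythroid sums on d3 were 1028 to 6549 CPM in lean and 777 to 882 CPM in DIO calli. All 12 erythroid markers were lower in DIO (median -2.28), 12 with an unadjusted p under 0.05, 0 past edgeR and 8 in DESeq2. Skeletal muscle sums were 7515 to 12503 CPM in lean and 10330 to 18441 CPM in DIO d3 calli. Mast cell and basophil markers, which matter because mast cells also make Ctsg, summed to 75.4 to 156 CPM in lean and to at most 49.4 CPM in DIO d3 calli, with Cpa3, mast cell carboxypeptidase, at 4.63 to 9.43 and 0.91 to 3.45 CPM. All 7 measured markers of this list were lower (median -1.4), 4 with an unadjusted p under 0.05, 0 past edgeR and 4 in DESeq2. Myeloid progenitor sums lay at 197 to 249 and 180 to 209 CPM. Eosinophil sums were 336 to 909 CPM in lean and 31.3 to 97.5 CPM in DIO d3 calli. All 8 measured eosinophil markers were lower (median -3.12), 8 with an unadjusted p under 0.05, 0 past edgeR and 7 in DESeq2. B progenitor sums were 35.9 to 130 CPM in lean and 28.3 to 34.7 CPM in DIO d3 calli, without overlap. All 6 measured B progenitor markers were lower (median -2.26), 5 with an unadjusted p under 0.05, 0 past edgeR and 3 in DESeq2. Of the full list, Vpreb2 was at 0 in all DIO d3 libraries. The part of these cells in the differences was not tested.

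Across all 30 libraries the members moved nearly as 1 block, and the sets were closer within themselves than to each other. The correlation of log2 CPM was 0.979 to 0.997 over the 15 pairs of later genes, 0.970 to 0.989 over the 6 primary pairs and 0.868 to 0.949 over the 24 pairs of a primary and a later gene. After each group's mean was taken away, so that only differences between mice of the same diet and day remained, these ranges were 0.970 to 0.994, 0.954 to 0.992 and 0.883 to 0.946. These are descriptions, since libraries share days and diets.

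The genes most like each set were looked for among 17347 genes outside the members. Nearest to the mean of the primary genes were Ms4a3 (r = 0.988 over 30 libraries), Prss57, a serine protease of primary granules (0.978), Fcnb (0.972), Ly6c2 (0.969) and Tspan32 (0.968). Nearest to the mean of the later genes were Ifitm6 (0.990), Cd177, a neutrophil surface antigen (0.988), Ly6g (0.986), Itgb2l (0.985) and Wfdc21 (0.984). No gene was among the 5 nearest of both sets. By Spearman's rho, 2 of the 5 nearest to the primary mean and 4 of the 5 nearest to the later mean were retained.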

How the data were processed

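Poly(A) RNA from 30 calli was sequenced from stranded libraries. Per the study's methods the authors trimmed the reads, aligned them to GRCm38 with HISAT2 2.1.0 and counted them per gene with HTSeq, and they deposited the raw counts used here. The HTSeq strand option, version and annotation are not given in the sources used here. The members and all gene lists were chosen with earlier results of these data known. Genes named outside the members are at most 3 of each list with the smallest adjusted p in the comparison, cell type markers read beside a result, genome neighbours and the 5 genes most like each set, and any other was chosen after its values were seen.

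Counts were normalized by TMM and tested by the quasi-likelihood F-test of edgeR 4.0.16 after filterByExpr, over the libraries of 1 diet for days and of 1 day for diets, with Benjamini-Hochberg adjustment over all genes tested and a threshold of 0.05. The change of the diet difference was tested by the interaction terms over d3 to d10 of both diets. DESeq2 1.42.0, other scaling factors, no filter, a replicate block, 1 fit of all 30 libraries and leaving out each mouse were alternatives. The log2 CPM used for balance and correlation had a prior count of 2. The scripts were tested on simulated counts. Each group has 3 mice with 1 callus each, and p-values measure the spread between them. Deviations from the group means were correlated between mice of the same number. Every pair was over 0.1 in 1 comparison only, lean d5 to d7 (0.277, 0.204 and 0.240). There the replicate block gave 0 genes and 0 members past the threshold, as without it. In the other lean comparisons every pair was positive, with means of 0.145 for d3 to d5, 0.115 for d7 to d10 and 0.174 for d3 to d10. In DIO and diet comparisons the means ran from -0.205 to 0.0995. Whether lean mice of the same number were paired was not tested.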

Additional observations from a re-analysis of the deposited data

How the results depend on the processing

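The call of the granule genes held best for DIO d3 to d21, where 9 or 10 members passed under leaving out any 1 mouse, and the balance of primary and later genes moved by less than the spread of the mice under each alternative run. Upper-quartile factors moved the median of all genes to -0.13 in DIO d14 to d21, with 10 members still called. The other counts below depend on the setting, and the cause was not tested. With 3 mice a group, single mice decided several calls.

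Members called were as follows in comparisons where they changed by over 1.5 times. The replicate block called 7 in lean d7 to d10, 9 among the lean days, 5 in DIO d14 to d21 and 10 in the diet comparison of d3. It changed no other count of members by over 1.5 times. The correlations of same-numbered mice were 0.0769, 0.230 and 0.0394 in lean d7 to d10 and -0.00275, 0.148 and -0.0833 in DIO d14 to d21. They were -0.0294, 0.190 and 0.0363 in the diet comparison of d3. DESeq2 called 1 among the lean days and 10 in the diet comparison of d3. No filter called 1 in DIO d5 to d7 and 10 in the diet comparison of d3, and the fit of all 30 libraries called 2 among the lean days and 2 in DIO d14 to d21. Leaving out each mouse gave 0 to 10 members in lean d3 to d10, 0 to 10 in DIO d14 to d21, 0 to 2 in DIO d5 to d7, 0 to 10 in the diet comparison of d3, 0 to 2 in that of d5 and 0 to 1 in that of d7.

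Counts over all genes moved more. In lean d3 to d5 (74 genes) no filter gave 169, the replicate block 199, DESeq2 569, all 30 libraries 202 and leaving out each mouse 9 to 129. In lean d5 to d7 (0 genes) DESeq2 gave 36, all 30 libraries 2 and leaving out each mouse 0 to 1. In lean d7 to d10 (450) the replicate block gave 1479, DESeq2 1757, all 30 libraries 1529 and leaving out each mouse 24 to 1141. Leaving out each mouse gave 2863 to 5016 in lean d3 to d10 and 1678 to 3130 among the lean days, where DESeq2 gave 4746. In DIO d3 to d5 (285) no filter gave 478, DESeq2 580 and leaving out each mouse 90 to 216. In DIO d5 to d7 (3) no filter gave 271, DESeq2 339, all 30 libraries 1 and leaving out each mouse 0 to 236. In DIO d10 to d14 (129) no filter gave 329, the replicate block 45, DESeq2 563, all 30 libraries 2 and leaving out each mouse 0 to 459. Leaving out each mouse gave 1285 to 4070 in DIO d14 to d21. For the change of the diet difference (282) no filter gave 503, DESeq2 1105 and leaving out each mouse 0 to 602. In the diet comparison of d3 (0) upper-quartile factors gave 1, no filter 515, the replicate block 325, DESeq2 743 and leaving out each mouse 0 to 237. In that of d5 (170) no filter gave 565, the replicate block 0, DESeq2 1107, all 30 libraries 63 and leaving out each mouse 0 to 935. In that of d7 (366) no filter gave 724, DESeq2 934, all 30 libraries 675 and leaving out each mouse 29 to 936. In that of d10 (0) no filter gave 29, DESeq2 56, all 30 libraries 3 and leaving out each mouse 0 to 10.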
